A study of Mus musculus with 6 samples.

Results

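The genes described here are the enzymes that build cholesterol together with the genes that set and relay the activity of the transcription factor SREBP2. Of 28 genes listed by symbol, 25 were found among the probe sets that carried a single gene symbol, and all 25 passed the filter on dim signals, out of 9209 genes tested in all. The genes were listed by symbol, but the list was chosen with earlier results of these data known. The comparisons with all genes below carry this limit. Within the list, measured levels entered only in the choice of a probe set for each gene. The other listed genes, Acat2, Insig1 and Soat2, had no probe set with that symbol as its only annotation and were not analysed here. Where a gene had several probe sets, its brightest on average stood for it.

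The arrays came from whole liver of Swiss-Webster mice, an outbred stock with no deletion or transgene named in the labels. Of the 6 arrays, 2 were from mice given a control diet (control 1 and control 2), 2 from mice given a diet with 1% of fraction 1, labelled hexane (arrays a and b), and 2 from mice given 1% of fraction 2, labelled methanol (arrays a and b), both fractions for 21 days. The series is titled after Boswellia serrata, the Indian frankincense tree whose resin is used in herbal medicine. No sex, age or length of control feeding is given, and nothing says whether an array holds 1 animal or a pool, so every p-value below reflects the spread among these arrays, which may be technical.

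Cells make cholesterol from acetyl-CoA by way of mevalonate, the isoprenoid diphosphates, squalene and a series of ring-modified sterols, and the liver is a main site of this synthesis. SREBP2 is made as a membrane protein bound to the escort protein SCAP. When membrane sterol is low, SCAP carries SREBP2 to the Golgi, where proteases release the part that enters the nucleus and switches on the genes of the pathway. When sterol is plentiful, the INSIG proteins hold SCAP in the endoplasmic reticulum.

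Promoter sequence of 5 members is shown because their signals carry the results below: Hmgcs1, Idi1 and Cyp51 as enzyme genes with higher signal after fraction 1, Insig2, whose level was more than 2-fold above control after both fractions, and Sc5d as an enzyme gene with lower signal on its brightest probe set. Each run is the 250 bases before the annotated start, 5′ to 3′ on the gene's own strand, from RefSeq on GRCm38.p6. This is the reference mouse sequence and was not read from these Swiss-Webster animals. Capitals mark TCACNCCAC, the core of a sterol response element to which SREBPs bind, CCAAT, the box bound by NF-Y, and GGGCGG, the box bound by Sp1, each searched on both strands. The windows are chr13:119690101-119690350 on the plus strand for Hmgcs1, chr13:8885356-8885605 on the plus strand for Idi1, and chr5:4104698-4104947 on the minus strand for Cyp51. Those of the other members shown are chr1:121332590-121332839 on the minus strand for Insig2, the most upstream of its 3 entries, and chr9:42264301-42264550 on the minus strand for Sc5d.
Hmgcs1: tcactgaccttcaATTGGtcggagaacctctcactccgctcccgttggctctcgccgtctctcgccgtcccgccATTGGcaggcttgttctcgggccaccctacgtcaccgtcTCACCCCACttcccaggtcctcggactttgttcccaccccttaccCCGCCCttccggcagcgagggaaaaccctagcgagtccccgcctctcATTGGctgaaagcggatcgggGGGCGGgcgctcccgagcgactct
Idi1: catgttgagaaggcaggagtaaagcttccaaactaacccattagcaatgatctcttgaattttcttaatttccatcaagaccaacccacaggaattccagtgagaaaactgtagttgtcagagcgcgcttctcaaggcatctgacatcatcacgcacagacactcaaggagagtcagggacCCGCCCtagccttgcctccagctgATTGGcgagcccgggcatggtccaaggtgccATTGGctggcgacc
Cyp51: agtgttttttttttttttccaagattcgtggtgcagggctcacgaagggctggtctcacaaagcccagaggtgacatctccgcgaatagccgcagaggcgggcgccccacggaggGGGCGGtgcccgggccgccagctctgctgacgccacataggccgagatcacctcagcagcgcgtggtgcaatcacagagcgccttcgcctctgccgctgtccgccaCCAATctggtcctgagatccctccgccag
Insig2: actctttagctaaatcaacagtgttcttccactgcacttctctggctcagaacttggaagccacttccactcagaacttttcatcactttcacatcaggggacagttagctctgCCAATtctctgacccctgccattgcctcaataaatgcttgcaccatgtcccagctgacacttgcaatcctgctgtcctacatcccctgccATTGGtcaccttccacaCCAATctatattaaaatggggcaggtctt
Sc5d: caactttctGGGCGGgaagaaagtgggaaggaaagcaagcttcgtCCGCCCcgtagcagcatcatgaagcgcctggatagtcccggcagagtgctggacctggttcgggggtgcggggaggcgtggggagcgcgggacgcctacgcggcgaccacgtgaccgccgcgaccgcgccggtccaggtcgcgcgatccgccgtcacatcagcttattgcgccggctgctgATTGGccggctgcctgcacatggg

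An entry was found for 22 of the 28 members, with 28 windows in all since Pmvk, Dhcr7, Scap and Insig2 had several. Fdps, Fdft1, Sqle, Stard4, Soat2 and Npc1 had no entry. Sqle, whose signal also rose after fraction 1, could therefore be neither shown nor searched. The sterol response element core was present in 1 of the 28 windows, that of Hmgcs1, where it began 137 bases before the start, and in 1.05% of all 32851 windows of this length. CCAAT was present in 18 of 28 member windows (64.3%) against 33.8% of all windows, and GGGCGG in 21 of 28 (75%) against 32.7%. These matches describe letters in a window, and a window without a match may still be bound.

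All signals below are the deposited array intensities, which had been scaled to a common level: the mean signal after trimming 2% at each end was 499.912 to 499.919 on every array. Fold changes are differences of mean log2(signal + 16), so they understate the change of dim probe sets. Tests are from limma with Benjamini-Hochberg adjustment over 14755 probe sets at a threshold of 0.05, and precision is limited by having 2 arrays a group, with a median standard error of 0.25 on the log2 scale. The control arrays differed in RNA quality readouts: actin probe sets at the 3′ and 5′ ends of the transcript stood in a ratio of 3.87 on control 2 and 2.13 to 2.64 elsewhere, and for Gapdh the ratio was 1.74 on control 2 and 1.07 to 1.38 elsewhere. They differed in the members as well: 18 of the 25 were higher on control 1 than on control 2, with a median difference of 0.32 on the log2 scale, against 42.2% of all genes and a median of -0.09. The part of RNA quality in the results was not tested, and results are therefore also given against each control array alone. Control 1 and fraction 2 array a were scanned in 1 batch and the other 4 arrays in another.

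After fraction 1, Hmgcs1 and Sqle rose, to 2.10 and 2.48 times the control level, and no member fell. The members called were 2 of 25 (8%) on the higher side against 0.337% of all genes, and 0 of 25 on the lower side against 0.402%. At an unadjusted p under 0.05, 11 of 25 members (44%) were higher against 5.79% of all genes, and 2 (8%) were lower against 7.16%. Both fraction 1 arrays lay above both control arrays for 13 of 25 members (52%) against 18.6% of all genes, and below both for 4 (16%) against 23.3%. The median difference over the members was 0.48 on the log2 scale, with 17 of 25 above 0, beside a median of -0.03 and 46.3% above 0 over all genes. That median depended on single arrays: it was 0.12 without control 2, 0.45 without control 1, 0.65 without fraction 1 array a and 0.23 without fraction 1 array b. The value without control 1 is also that within the scan batch of both fraction 1 arrays, where control 2 was the only control. In it 19 of 25 members lay above 0, but neither Hmgcs1 nor Sqle passed the threshold within that batch.

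**Figure D1:**
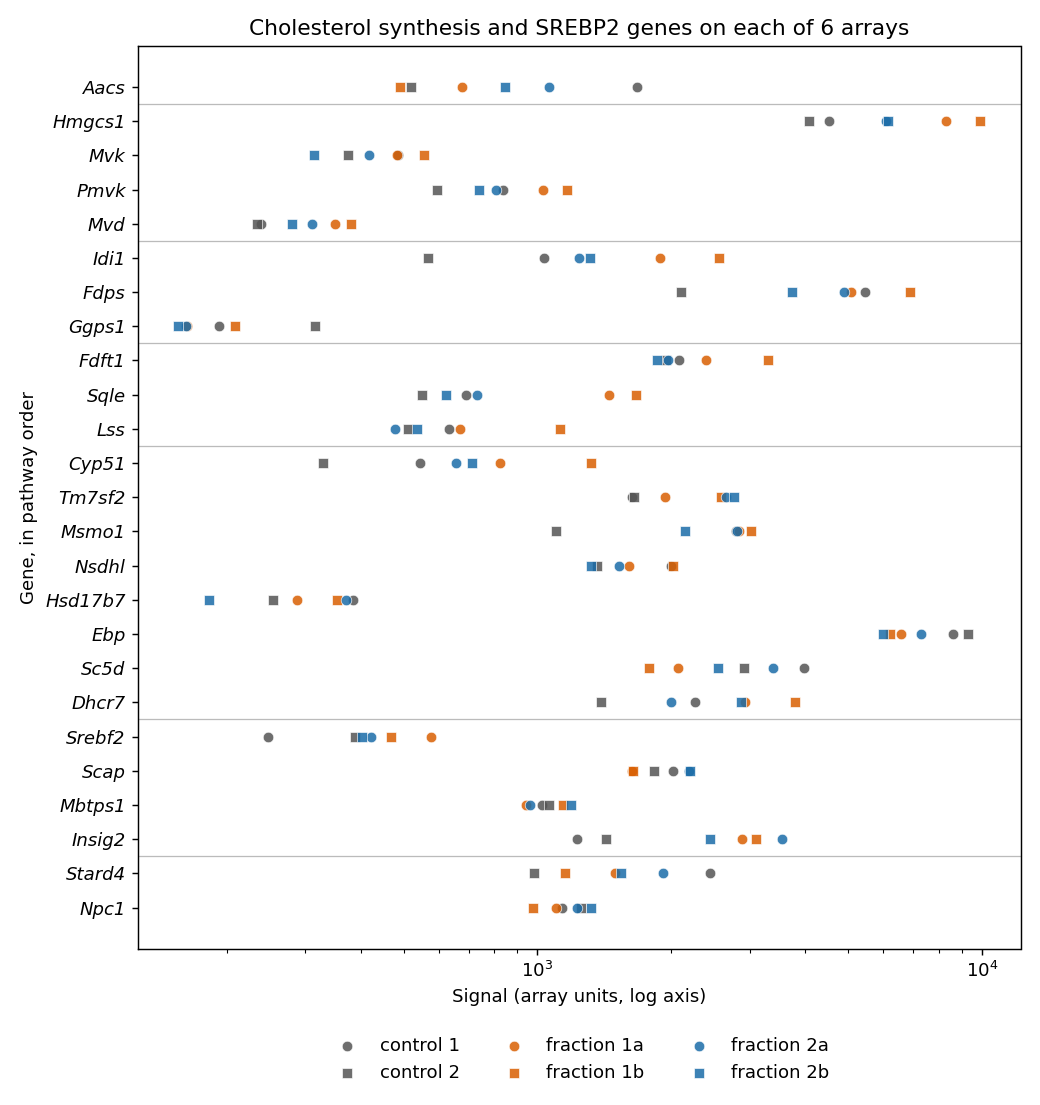
Signal of each of the 25 members (rows, in pathway order) on each of the 6 arrays, in array units on a log axis, with colour for the diet and marker shape for the replicate. Hmgcs1 and Sqle show both fraction 1 arrays above every other array, whereas Insig2 shows the arrays of both fractions above both control arrays.

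Hmgcs1 encodes the cytosolic HMG-CoA synthase, which joins acetyl-CoA and acetoacetyl-CoA ahead of mevalonate. Its signal was 4529.7 and 4071 on the control arrays, 8274 and 9911 after fraction 1, and 6082 and 6137 after fraction 2. On this probe set the 3 groups did not overlap, with fraction 1 highest, fraction 2 between and control lowest. Hmgcs1 rose after fraction 1 by a log2 fold change of 1.07 (SE 0.14, adjusted p = 0.0242), while the fraction 2 difference of 0.51 and the difference of 0.57 between the fractions had adjusted p of 0.535 and 0.407. Its 3 dimmer probe sets gave fraction 1 differences of 1.26 (adjusted p = 0.0319), 1.06 and 1.11. In the same order they differed between the fractions by 0.64, 0.56 and 0.20. On the last of them, the dimmest, the arrays of the fractions overlapped.

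The kinases and the decarboxylase that turn mevalonate into isopentenyl diphosphate had smaller differences. Pmvk, the phosphomevalonate kinase, had signals of 835.3 and 596 in control, 1030.3 and 1167 after fraction 1, and 809 and 737 after fraction 2. The fraction 1 arrays were the highest, and the fraction 2 arrays lay between the control arrays. The Pmvk difference was 0.62 after fraction 1 (SE 0.21, adjusted p = 0.27), 0.13 after fraction 2 and 0.50 for fraction 1 over fraction 2 (adjusted p = 0.616). Mvd, the mevalonate diphosphate decarboxylase, had signals of 238 and 234 in control, 351 and 380.2 after fraction 1, and 312 and 280.3 after fraction 2. On this probe set its groups did not overlap, with fraction 2 between control and fraction 1. The Mvd difference after fraction 1 was 0.60 (SE 0.20, adjusted p = 0.25), and after fraction 2 it was 0.31 (adjusted p = 0.792). On the other Mvd probe set the fraction 1 difference was 0.77 and the fraction 2 difference -0.11, with signals of 264 and 186 in control and 245 and 170.0 after fraction 2, so the order of those groups held only on the brighter probe set. Mvk, the mevalonate kinase, differed by 0.27 and -0.23 after fractions 1 and 2, and its fraction 1 and control arrays overlapped. The 4 mevalonate genes had a median of 0.61 after fraction 1, all above 0, and of 0.22 after fraction 2.

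On the probe set used for each gene, Idi1 had the largest fraction 1 difference among the 25 members. Idi1 is the isomerase that makes dimethylallyl diphosphate from isopentenyl diphosphate. Its signal was 1032.7 and 566 in control, 1882 and 2556 after fraction 1, and 1241 and 1310.6 after fraction 2. On this probe set the groups did not overlap, although the control arrays were far apart. The fraction 1 difference was 1.50 (SE 0.29) with an adjusted p of 0.0687, so Idi1 missed the threshold, and it was 0.73 after fraction 2 (adjusted p = 0.673). Set against control 1 alone the fraction 1 difference was 1.08, and against control 2 alone it was 1.92. It passed the threshold in 4 of 18 alternatives, namely with scan batch as a blocking term (adjusted p = 0.0478), with chip lot as one (0.0295), within scan batch 1 alone (0.0497) and without control 1 (0.0169), and its adjusted p ranged from 0.0169 to 0.459. The dimmer Idi1 probe set gave 1.10 after fraction 1 (adjusted p = 0.156), and the mean over the Idi1 probe sets gave 1.30 (adjusted p = 0.0863). Between the fractions Idi1 differed by 0.78 on the brighter probe set. On the dimmer one it differed by 0.32 (adjusted p = 0.774), and the arrays of the fractions overlapped. Fdps, which makes farnesyl diphosphate, differed by 0.80 (adjusted p = 0.454) after fraction 1. However, its control signals of 5454.5 and 2103 enclosed the fraction 1 signal of 5080.0 on array a. Ggps1, on the branch that leads to protein prenylation, differed by -0.39 after fraction 1 and -0.59 after fraction 2.

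The squalene enzymes had the largest median difference between the fractions of any step. Sqle encodes squalene epoxidase, which makes the oxygenated squalene that is closed into the sterol ring. Its signal was 691 and 550.3 in control, 1450.3 and 1668 after fraction 1, and 729.6 and 621 after fraction 2. Both fraction 1 arrays lay above all 4 others, while fraction 2 and control overlapped. Sqle rose after fraction 1 by 1.31 on the log2 scale (SE 0.20, adjusted p = 0.035), and the fraction 2 difference was 0.12 (adjusted p = 0.904). The difference between the fractions was 1.19 (SE 0.20), the largest of the 25 members in that comparison, with an unadjusted p of 3.07e-04 and an adjusted p of 0.2.

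Fdft1, the squalene synthase, had signals of 2081 and 1950.3 in control, 2388 and 3306 after fraction 1, and 1967 and 1858 after fraction 2. Lss, the lanosterol synthase that closes the ring, had signals of 633 and 512 in control, 669.6 and 1123 after fraction 1, and 478 and 537 after fraction 2. For both genes the fraction 1 arrays were the highest and array b stood well above array a. The fraction 1 differences were 0.48 for Fdft1 (SE 0.19, adjusted p = 0.355) and 0.59 for Lss (SE 0.26, adjusted p = 0.414). After fraction 2 they were -0.07 and -0.16. Between the fractions, Fdft1 differed by 0.55 (adjusted p = 0.531) and Lss by 0.76 (adjusted p = 0.536).

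The sterol ring enzymes had differences on both sides of 0, and none passed the test. Cyp51, the lanosterol demethylase, had signals of 543 and 329 in control, 823 and 1317 after fraction 1, and 655 and 712 after fraction 2. The groups did not overlap, with fraction 2 between control and fraction 1. The Cyp51 difference was 1.27 after fraction 1 (SE 0.30, adjusted p = 0.115) and 0.67 after fraction 2 (adjusted p = 0.725). Tm7sf2, a sterol reductase acting after Cyp51, had signals of 1634 and 1649 in control, 1934 and 2584 after fraction 1, and 2659.6 and 2763 after fraction 2. Both fractions lay above control, and fraction 2 was the higher of them. Its differences were 0.44 (SE 0.18, adjusted p = 0.372) after fraction 1 and 0.72 (SE 0.18, adjusted p = 0.483) after fraction 2. Dhcr7, the reductase of the final step to cholesterol, had signals of 2265 and 1387 in control, 2928 and 3800.5 after fraction 1, and 1993 and 2876 after fraction 2. The fraction 1 arrays were the highest, and fraction 2 overlapped with control. The Dhcr7 difference after fraction 1 was 0.91 (SE 0.28, adjusted p = 0.214).

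Ebp, the sterol isomerase, had signals of 8579.8 and 9318 in control, 6554 and 6195 after fraction 1, and 7305 and 5988 after fraction 2. Both fractions lay below both control arrays. Its differences were -0.49 (SE 0.14, adjusted p = 0.196) and -0.43 (SE 0.14, adjusted p = 0.606). Sc5d, the desaturase that acts after Ebp, had signals of 3971 and 2908 in control, 2075 and 1786 after fraction 1, and 3384 and 2543 after fraction 2 on its brightest probe set. The fraction 1 arrays were the lowest, and fraction 2 overlapped with control. That probe set differed by -0.82 after fraction 1 (SE 0.21, adjusted p = 0.154). The dimmer Sc5d probe set went the other way, with signals of 111 and 79.6 in control, 248 and 255.5 after fraction 1, and 268 and 257 after fraction 2. It differed by 1.28 (SE 0.24, adjusted p = 0.0688) after fraction 1 and 1.34 (adjusted p = 0.203) after fraction 2, so no direction can be given for Sc5d.

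Msmo1, Nsdhl and Hsd17b7, which together strip methyl groups from the ring, differed by 0.74, 0.13 and 0.02 after fraction 1. The Msmo1 signal was 2790.2 on control 1 and 1103 on control 2, a wider gap than that between any of the treated arrays, which ranged from 2142 to 3028. Over the 8 sterol ring enzymes the fraction 1 median was 0.28, with 6 above 0. Aacs, the acetoacetyl-CoA synthetase that feeds ketone body carbon into the pathway, had signals of 1673 and 518 in control, 678 and 490.4 after fraction 1, and 1061 and 846 after fraction 2. Its control arrays enclosed all other arrays but fraction 1 array b, and the fraction 1 difference was -0.68 (adjusted p = 0.611).

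**Figure D2:**
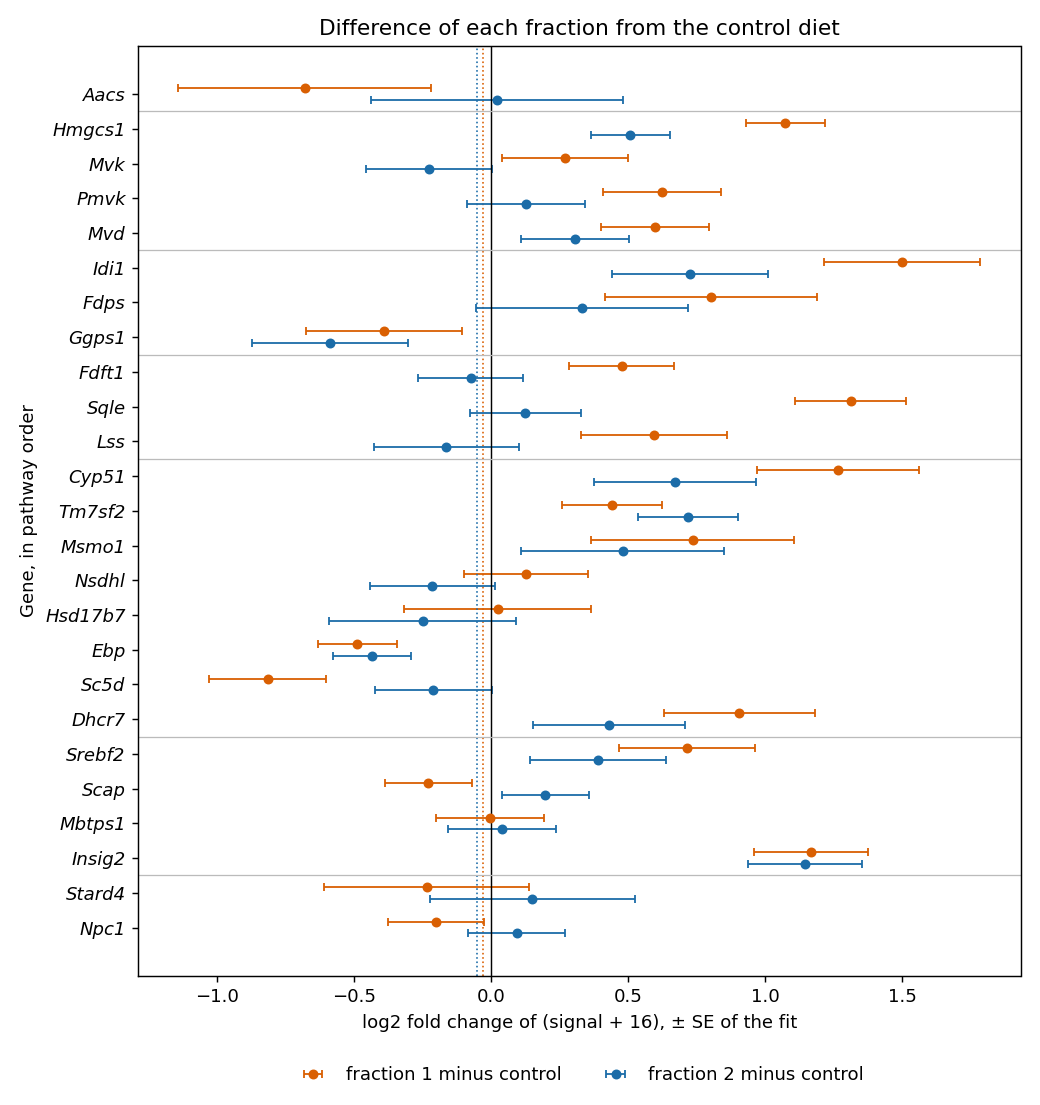
Log2 fold change of signal + 16 for each member (rows, in pathway order), fraction 1 minus control and fraction 2 minus control, with bars for the standard error of the fit and dotted lines for the median of all genes tested. Fraction 1 values run from -0.82 (Sc5d) to 1.50 (Idi1), and the values of both fractions lie together for Insig2 (1.17 and 1.15) and apart for Sqle (1.31 and 0.12). Only the probe set used for each gene is drawn, and the dimmer Insig2 probe sets gave larger differences between the fractions.

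Among the genes that control SREBP2, Insig2 had the largest differences. INSIG2 holds SCAP in the endoplasmic reticulum, and in mouse liver a transcript of the gene is known to rise on fasting and to fall with insulin. The Insig2 signal was 1225 and 1427 in control, 2880.4 and 3096 after fraction 1, and 3553 and 2438 after fraction 2. All 4 treated arrays lay above both control arrays, and the fractions overlapped on this probe set. The differences were 1.17 (SE 0.21, adjusted p = 0.0531) after fraction 1 and 1.15 (adjusted p = 0.202) after fraction 2, neither past the threshold on this probe set. The dimmer Insig2 probe sets rose after fraction 1, by 1.71 (SE 0.22, adjusted p = 0.0188) and 1.73 (SE 0.25, adjusted p = 0.0308), and had fraction 2 differences of 1.20 (adjusted p = 0.202) and 1.42 (adjusted p = 0.189). With the mean over its probe sets Insig2 rose after fraction 1 by 1.54 (adjusted p = 0.0135), above the 1.30 of Idi1. Of 18 alternatives, this was the 1 in which Insig2 passed the threshold after fraction 1. Between the fractions the brightest probe set differed by 0.02 (SE 0.21, adjusted p = 0.984). On the dimmer probe sets both fraction 1 arrays lay above both fraction 2 arrays. The differences there were 0.52 (adjusted p = 0.602) and 0.30 (adjusted p = 0.756).

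Srebf2 encodes SREBP2 itself. Its signal was 248 and 388 in control, 578 and 467.5 after fraction 1, and 423 and 402 after fraction 2. On this probe set the groups did not overlap, with fraction 1 highest. The difference was 0.71 after fraction 1 (SE 0.25, adjusted p = 0.275) and 0.39 after fraction 2 (adjusted p = 0.787). A dimmer Srebf2 probe set gave 0.24 and 0.38. There the fraction 1 signals of 201.5 and 174 overlapped with the control signals of 188.6 and 129. The mean after fraction 2 was the highest, so the order of the groups held only on the brighter probe set. Scap had signals of 2018 and 1824 in control, 1629.6 and 1639 after fraction 1, and 2196 and 2207 after fraction 2. The fraction 1 arrays were the lowest and the fraction 2 arrays the highest. The Scap difference was -0.23 (SE 0.16, adjusted p = 0.626) after fraction 1 and 0.20 (adjusted p = 0.815) after fraction 2. Mbtps1, the Golgi protease that makes the first cut in SREBP2, stayed between 944 and 1192 on all 6 arrays.

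The transport genes did not pass the test in any comparison. Stard4, a carrier of sterol between membranes, had signals of 2438 and 981 in control, which enclosed all 4 treated arrays. Its dimmer probe set had signals of 451 and 374 in control, 245 and 195 after fraction 1, and 314 and 288 after fraction 2. All 4 treated arrays lay below both control arrays on that probe set. The differences there were -0.86 (SE 0.22, unadjusted p = 0.00362, adjusted p = 0.142) after fraction 1 and -0.43 (adjusted p = 0.748) after fraction 2. Npc1, which exports cholesterol from lysosomes, ranged from 974.8 to 1322.5 over the 6 arrays and differed by -0.20 after fraction 1 and 0.09 after fraction 2.

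The control arrays alone gave different sizes for several enzymes. Fraction 1 lay above 1 on the log2 scale against both control arrays for 3 of 25 members: Idi1, Sqle (1.15 against control 1 and 1.47 against control 2) and Insig2 (1.27 and 1.06). Hmgcs1 was close behind, at 1.00 and 1.15. Fdps and Msmo1 differed by 0.12 and 0.07 against control 1, but by 1.49 and 1.40 against control 2. Aacs and Stard4 were lower than control 1 (-1.51 and -0.89) and higher than control 2 (0.15 and 0.41). These 4 genes, Aacs, Fdps, Msmo1 and Stard4, were the members more than 2-fold apart between the control arrays, and no member was that far apart between the replicate arrays of either fraction.

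**Figure D3:**
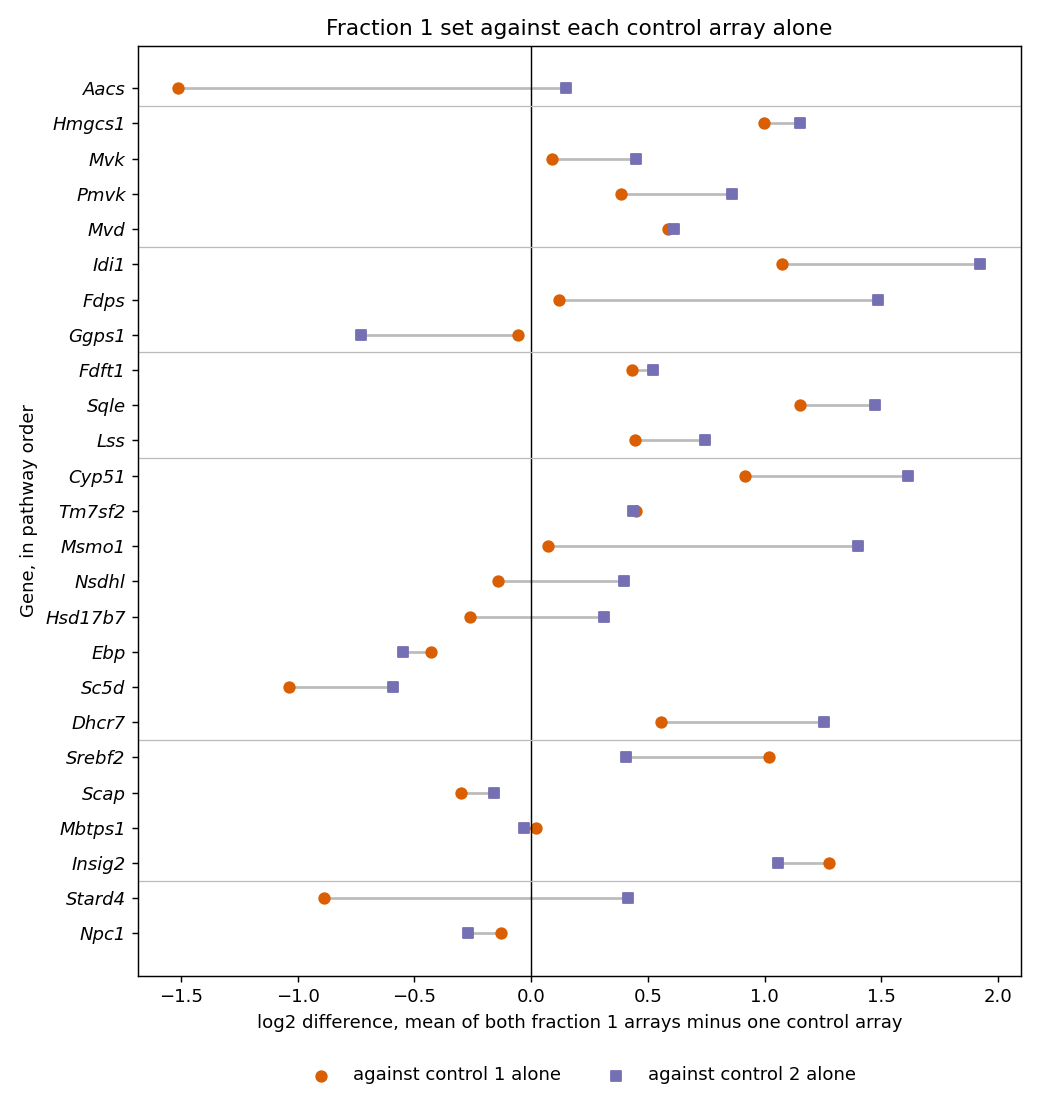
Log2 difference of the mean of both fraction 1 arrays from control 1 alone (circles) and from control 2 alone (squares) for each member, joined by a line. Lines for Hmgcs1, Sqle and Insig2 are short and lie to the right of 0, whereas those for Aacs and Stard4 cross 0.

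The calls of Hmgcs1 and Sqle were close to the threshold. Both were lost without control 2 (adjusted p = 0.0573 and 0.078), without fraction 1 array a (0.0573 and 0.127), without fraction 1 array b (0.217 and 0.329), and without either fraction 2 array (0.0594 to 0.0683), and both held without control 1 (0.0254 and 0.032). Within scan batch 1 alone, which leaves control 2 as the single control array, both were also lost (0.0651 and 0.0596), and the 2 members called there were Idi1 and Msmo1. With the mean over its probe sets Hmgcs1 missed the threshold (0.0543). Each of the calls held in 8 of 18 alternatives. Over 18 alternatives the Hmgcs1 difference stayed between 0.94 and 1.20 and its adjusted p between 0.0218 and 0.217. The Sqle difference stayed between 1.15 and 1.47 and its adjusted p between 0.0216 and 0.329.

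Of the 44 member probe sets tested, 5 rose after fraction 1 and 0 fell, against 0.712% of all probe sets called in either direction. The 5 belonged to Hmgcs1, Sqle and Insig2. Among the 12 members with several tested probe sets, all probe sets had the same sign after fraction 1 for 9, the exceptions being Aacs, Ggps1 and Sc5d. Why probe sets of these 3 genes differed was not tested.

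**Figure D4:**
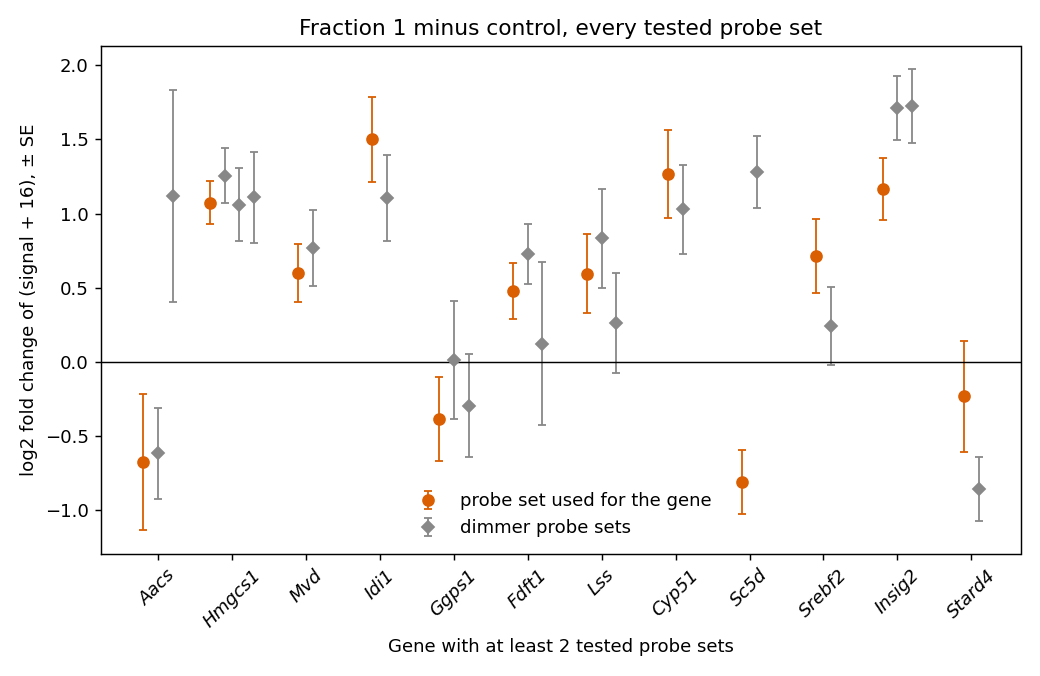
Log2 fold change of signal + 16, fraction 1 minus control, with bars for the standard error, for every tested probe set of the 12 members with several (circles, the probe set used for the gene; diamonds, dimmer ones). All 4 Hmgcs1 and all 3 Insig2 probe sets lie at 1.06 or above, while the Sc5d probe sets lie at -0.82 and 1.28.

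After fraction 2, no member passed the threshold, against 0.0977% of all genes on the higher side, 0.0217% on the lower side and 0.108% of all probe sets. Insig2, Tm7sf2, Hmgcs1 and Idi1 had an unadjusted p under 0.05 on the higher side, which is 4 of 25 members (16%) against 3.31% of all genes, and Ebp on the lower side, 1 of 25 (4%) against 3.92%. Both fraction 2 arrays lay above both controls for 8 members (32%) against 14.6% of all genes, and below both for 2 (8%) against 21.6%. The member median was 0.13 on the log2 scale beside -0.05 over all genes. It was -0.11 without control 2, 0.28 without control 1 and 0.19 without fraction 2 array b. Within scan batches it was 0.25 in 1 batch, against control 2, and -0.05 in the other, against control 1. The fraction 1 and fraction 2 comparisons share both control arrays.

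Set directly against each other, the fractions differed in no member past the threshold, and 0.0136% of all probe sets were called. This comparison uses no control array in its means. At an unadjusted p under 0.05, Hmgcs1, Pmvk, Idi1, Fdft1, Sqle and Lss were higher after fraction 1 than after fraction 2, which is 6 of 25 (24%) against 3.78% of all genes, and Sc5d and Scap were lower (8% against 4.18%). On the dimmest Hmgcs1 probe set and the dimmer Idi1 probe set the arrays of the fractions overlapped. Both fraction 1 arrays lay above both fraction 2 arrays for 15 members (60%) against 25.9% of all genes, and below both for 6 (24%) against 21.9%. The median difference was 0.29 over the members and 0.02 over all genes, and 0.21 to 0.36 with 1 fraction array left out. By step it was 0.50 for the 4 mevalonate genes, 0.47 for the 3 isoprenoid genes and 0.76 for the 3 squalene genes. These 10 genes were all above 0. The sterol ring enzymes had a median of 0.26, with 5 of 8 above 0. For the 4 genes that control SREBP2 it was -0.01, 2 of them above 0. For the 2 transport genes it was -0.34 and for Aacs alone -0.70, with 0 above 0. Over all members 17 of 25 lay above 0, against 52.8% of all genes. With scan batch as a block the member median was 0.52. Within the batch that held fraction 2 array b it was 0.36, from the same arrays as with fraction 2 array a left out.

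Genes next to the pathway did not pass the test. Of 18 further genes of cholesterol synthesis, uptake and SREBP processing, 8 were tested and 0 rose or fell in any of the 3 comparisons, with a median of -0.06 after fraction 1 and 2 genes below control at an unadjusted p under 0.05. Among them Acat1, a mitochondrial thiolase, had the lowest fraction 1 value, -0.84 (adjusted p = 0.108). Of 11 genes of sterol efflux and LXR, the receptor for oxysterols, 9 were tested and 0 passed. At an unadjusted p under 0.05, 1 was lower after fraction 1, and 1 was higher and 1 lower after fraction 2. Abcg5, which exports sterol into bile, differed by -0.41 after fraction 1 and -0.53 after fraction 2 (adjusted p = 0.326 and 0.535). Of 13 genes of the SREBP1 fatty acid pathway, all were tested and 0 passed. At an unadjusted p under 0.05, 1 was higher and 1 lower after fraction 1, and 0 were higher and 1 lower after fraction 2. The gene lower after fraction 2 was Acaca, with a difference of -1.13 (adjusted p = 0.662). Srebf1, which encodes SREBP1, differed by -0.91 after fraction 1 (adjusted p = 0.159). The Srebf2 difference was 0.71 on its brighter probe set and 0.24 on the dimmer one. Lpin1, a phosphatidate phosphatase, was 1.32 higher after fraction 1 than after fraction 2 (adjusted p = 0.43).

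The arrays carried the liver's own markers. The summed signal of 7 of 8 hepatocyte markers was 149698 to 171288 in control, 126061 to 141134 after fraction 1 and 118503 to 124112 after fraction 2. For 8 of 8 macrophage markers it was 7553 to 8700 in control, 6912 to 7367 after fraction 1 and 7412 to 8093 after fraction 2. The sum of 5 of 6 endothelial markers was 4741 to 6184, 3721 to 3829 and 4448 to 4843 in the same order, and that of 5 of 6 stellate cell markers 2933 to 4313, 2260 to 2774 and 2828 to 3902. These 4 sums were lower after fraction 1 than in control without overlap, and the hepatocyte sum was lower after fraction 2 as well. Bright markers weigh most in a sum, and single markers did not all follow it. Marco, a macrophage marker, was higher after fraction 1 (202.4 and 185.4, control 135.1 and 137.3). Dcn, the brightest stellate cell marker, overlapped between fraction 1 (1746.3 and 1287) and control (3189.6 and 1372.5). Of all single genes, 23.3% were lower without overlap after fraction 1 and 21.6% after fraction 2. At an unadjusted p under 0.05, 2 of the 7 hepatocyte markers were lower after fraction 1 and all 7 after fraction 2. The shares over all genes were 7.16% and 3.92%. After fraction 1, 2 of 8 macrophage, 1 of 5 endothelial and 1 of 5 stellate cell markers were lower at that level, and 0 were higher. In the fraction 1 comparison 15 of the 19 enzymes of the pathway (78.9%) lay above 0 on their brightest probe sets, against 46.3% of all genes. The single cholangiocyte marker tested of 4 had signals of 93.4 to 98.7, 69.9 to 156.0 and 99.4 to 113.7, and the sum of 3 of 6 lymphocyte markers was 830 to 849, 478 to 930 and 734 to 890. None of these markers passed the test, but the erythroid marker Alas2 fell after fraction 1 by 1.66 on the log2 scale (adjusted p = 0.0384). In whole liver, fewer cells of a type and less RNA per cell cannot be told apart, and the part of cell makeup in the pathway's differences was not tested.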

How the data were processed

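RNA of whole liver was measured on Affymetrix arrays, 2 for each of 3 diets. The values used are the signal intensities that the authors deposited, 1 per probe set and array; the summary method is not given in the sources used here. The deposited scan records served only to place arrays in scan batches and chip lots. Gene symbols came from the platform annotation: 20393 of 22690 probe sets carried a single symbol and were named, while 691 with more symbols and 1606 without any stayed unnamed. A probe set was tested where at least 2 of 6 arrays reached the array's 40th percentile, which left 14755 probe sets and 9209 genes. Signals were taken as log2(signal + 16), and all 6 arrays were fitted together with limma 3.58.1 in R 4.3.3 (lmFit, eBayes with a variance trend, 3 residual and 5.43 prior degrees of freedom), two-sided, with Benjamini-Hochberg adjustment over all tested probe sets. The code was tested on simulated data. Alternatives covered scaling, pseudocount, filter, variance trend, batch, the groups fitted, the choice of probe set and leaving out each array. Given in full are members past the adjusted threshold or at an unadjusted p under 0.05 in any comparison, or with groups more than 2-fold apart. Other genes named came from fixed lists, and each had passed or was among the 3 smallest p of its list. Not every such gene is named. The members and the lists were chosen with earlier results of these data known. Promoters are the RefSeq entries for GRCm38.p6, and figures were drawn with matplotlib 3.10.9.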

Additional observations from a re-analysis of the deposited data

Results flagged for a closer look

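Scap, the escort of SREBP2, had differences of opposite sign after the fractions: -0.23 on the log2 scale after fraction 1, with both arrays below both control arrays, and 0.20 after fraction 2, with both arrays above. The direct difference between the fractions was -0.43 (unadjusted p = 0.0264, adjusted p = 0.565 in limma), so it did not pass the threshold. Groups of 2 arrays are too small for a check of single outlying arrays.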

How the results depend on the processing

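Of 825 values of the 15 members given in full, recomputed under 19 alternatives, 787 kept their direction and their side of the threshold, 20 kept the direction but lost the call, 6 gained a call and 12 changed sign. For fraction 1 against control, the 105 probe sets called became 48 with each array centred on its median, 27 with no filter on dim probe sets, 12 with no variance trend, 66 within scan batch 1 and 39 with only these groups fitted, and 14 to 149 with 1 array left out; members called went from 2 to 1 with centring, to 0 with no filter, no variance trend or only these groups, and to 0 to 5 with 1 array left out. For fraction 2, the 16 probe sets became 10 with no filter, 2 with no variance trend, 10 with chip lot as a block, 4 within scan batch 1 and 9 with only these groups, and 3 to 28 with 1 array left out. Between the fractions, the 2 probe sets became 0 with quantile normalization, centring, a pseudocount of 1, no filter, a block for scan batch, scan batch 1 alone or no variance trend, 16 with chip lot as a block and 0 to 11 with 1 array left out. The members' median was 0.12 to 0.65 after fraction 1 and -0.11 to 0.28 after fraction 2 with 1 array left out, and between the fractions it was 0.52 blocked on scan batch and 0.61 blocked on chip lot; its SD between replicate arrays was 0.16. Centring moved the median of all genes by 0.12 after fraction 2. Sign changes were a fraction 2 difference of 0.040 for Fdft1 and a difference between fractions of -0.064 for Insig2 with centring, 0.068 for Lss after fraction 2 and 0.089 for Ebp between the fractions within scan batch 1, and 0.23 and 0.56 for Sc5d after fractions 1 and 2 with the mean over its probe sets, which are of opposite sign. With 1 array left out, Insig2 ranged from -0.25 to 0.29 and Ebp from -0.20 to 0.089 between the fractions, and after fraction 2 Sc5d ranged from -0.43 to 0.012, Pmvk from -0.11 to 0.37 and Sqle from -0.036 to 0.28. Apart from fewer arrays and fewer or more probe sets tested, the cause was not tested. The replicate letters a and b of the fractions pair nothing by label, and the correlation of their a minus b differences was 0.03 over 14755 probe sets. Control 1 minus control 2 correlated at 0.30 with fraction 2 a minus b and at 0.0090 with fraction 1 a minus b; control 1 and fraction 2 array a share their scan batch and chip lot. With the letter as a replicate block, 75 probe sets were called between the fractions and 1 member, Sqle (adjusted p = 0.0459). Control arrays carry numbers instead of letters, so the labels give no replicate block that spans control and fractions; the blocks for scan batch and chip lot did include the control arrays.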
